A study of Rattus norvegicus with 12 samples.

Results

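The material described here was the unexposed fetal rat pituitary at gestational day 18. The members were chosen by their labels alone: 6 control arrays, 3 of male and 3 of female fetal Wistar pituitaries, of the 12 arrays of the series. The other 6 arrays, 3 of each sex, were labelled TCDD, a dioxin that acts through the aryl hydrocarbon receptor, and were used here only where stated. All 12 samples share the strain, the tissue and the day. The labels give neither a dose nor a vehicle, and they do not say whether pituitaries or littermates were pooled, so any p-value below measures only the spread between these samples. Each array was a one-colour Agilent expression array that measured labelled RNA as brightness (intensity) at 60-base probes.

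The pituitary forms from an oral epithelial pouch, which makes the hormone cells of the anterior lobe, and from a downgrowth of the hypothalamus, which makes the posterior lobe. In the anterior lobe, corticotropes make the hormone precursor encoded by Pomc, thyrotropes combine Tshb with the shared subunit Cga, gonadotropes combine Lhb or Fshb with Cga, somatotropes make growth hormone (Gh1) and lactotropes make prolactin (Prl). Corticotropes and thyrotropes are known as early cell types in rodents, whereas growth hormone and prolactin output climbs towards and after birth.

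The level of a gene is its log2 signal minus the 75th percentile of its array, so a level of 0 is the signal that 75% of the spots on that array do not exceed. A gene was called detected on an array if at least 1 of its probes carried the scanner's flag for a signal well above background. The lowest signal so flagged lay at a level between -6.74 and -6.31 on the control arrays. The flag at low levels does not by itself show that a gene was on. Sry, a Y-linked gene, carried it on all 6 control arrays, females included, at levels between -5.55 and -5.14. Probes differ in how well they bind and label, so an order of genes by level is an order of probe signals and not of RNA amounts. Of 26258 genes on the array, 17336 (66%) were detected on all 6 control arrays, 2918 (11.1%) on 1 to 5 and 6004 (22.9%) on none. Among the 17525 genes with a symbol, from which the lists below come, these shares were 71.6%, 9.47% and 18.9%. Between 75.1% and 78.4% of 42877 spots per control array were well above background, and 0 were saturated. Levels of the detected genes correlated between control arrays with r from 0.975 to 0.995 across genes, which are not independent replicates. The highest value was between male control 3 and female control 3. In a bulk sample such as these, fewer cells of a type and less RNA per cell cannot be told apart.

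Some arrays stood apart in gene lists of neighbouring tissue. Male control 2 and female control 2 had the highest levels of all 25 sensory ganglion neuron markers. Male control 1 had by far the highest level of Ttr, and female control 1 the highest level of most muscle and hypothalamus markers. Their values are given below beside the results they touch.

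Sequences upstream of 4 hormone genes are shown because these genes run from Pomc, Cga and Tshb, among the brightest probes of the array, to Prl near its middle. Gh1 and Fshb are not among them because the promoter set used held no entry for either. Each run covers 250 bases before and 50 from the transcription start in the RefSeq annotation of build GRCr8, 5′ to 3′ on the gene's strand, and capitals mark matches to 3 short motifs searched on both strands. The regions are chr6:32659103-32659402 (plus strand) for Pomc, chr5:54283090-54283389 (plus) for Cga, chr2:192918005-192918304 (minus) for Tshb and chr17:38298168-38298467 (minus) for Prl.
Pomc: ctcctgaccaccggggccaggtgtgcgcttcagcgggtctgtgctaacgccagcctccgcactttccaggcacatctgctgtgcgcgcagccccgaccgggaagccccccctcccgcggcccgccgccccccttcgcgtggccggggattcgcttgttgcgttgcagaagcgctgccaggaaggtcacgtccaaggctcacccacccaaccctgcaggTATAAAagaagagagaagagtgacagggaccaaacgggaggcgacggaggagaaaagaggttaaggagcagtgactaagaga
Cga: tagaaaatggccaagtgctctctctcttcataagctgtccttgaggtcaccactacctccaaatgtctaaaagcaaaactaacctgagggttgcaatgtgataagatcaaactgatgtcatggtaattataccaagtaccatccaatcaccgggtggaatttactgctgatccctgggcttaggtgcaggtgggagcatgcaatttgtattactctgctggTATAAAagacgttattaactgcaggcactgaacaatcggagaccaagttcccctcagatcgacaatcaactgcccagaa
Tshb: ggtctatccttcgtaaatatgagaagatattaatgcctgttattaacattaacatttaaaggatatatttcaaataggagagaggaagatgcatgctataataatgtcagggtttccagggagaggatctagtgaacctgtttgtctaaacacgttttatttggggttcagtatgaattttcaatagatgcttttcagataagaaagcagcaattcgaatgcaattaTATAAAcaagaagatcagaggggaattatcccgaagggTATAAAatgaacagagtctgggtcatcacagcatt
Prl: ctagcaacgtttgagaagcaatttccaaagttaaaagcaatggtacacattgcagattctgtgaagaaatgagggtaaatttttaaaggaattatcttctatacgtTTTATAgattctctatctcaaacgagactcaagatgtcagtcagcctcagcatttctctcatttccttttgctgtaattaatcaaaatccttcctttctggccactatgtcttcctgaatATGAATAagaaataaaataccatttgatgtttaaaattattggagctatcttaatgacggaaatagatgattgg
The first motif was TATAAA, the core of the box that places the start of transcription. The second was ATGNATA, a core bound by POU1F1. The last was TAATCC, a core bound by PITX factors. A match is a description of letters, not a site. TATAAA lay 32 bases before the start of Pomc, 29 before that of Cga and 23 before that of Tshb, which held another match after its start. The first of the 2 Lhb entries held TATAAA 28 bases before its start. Prl held the first motif on the opposite strand only, and the POU1F1 core in the form ATGAATA 24 bases before its start. Of 33469 promoters of this length, 14.2% held the first motif on either strand, 9.88% the POU1F1 core and 7.17% the PITX core. None of the 4 windows held the PITX core.

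The 6 hormone genes chosen to mark the tissue were detected on all 6 control arrays, and their probes fell into a bright and a middle group. Errors after ± here and below are the pooled within-sex SD over the arrays (n = 6 unless stated). Pomc had levels of 6.63, 6.51 and 6.40 on male controls 1, 2 and 3 and 7.00 and 6.28 on female controls 1 and 2, with a mean of 6.56 ± 0.31 (n = 5). The spot of Pomc on female control 3 was flagged as a non-uniform or population outlier, so its level was left out and only its flag for a signal above background was kept. Pomc ranked at the 99.9th percentile of the genes detected on all 6 arrays. Cga, the subunit shared by the glycoprotein hormones, stood at 5.63, 5.87 and 5.95 in males and 6.09, 5.95 and 6.05 in females (5.92 ± 0.13, 99.5th percentile). Tshb, the subunit particular to thyroid-stimulating hormone, had levels of 4.66, 4.83 and 4.92 in males and 5.26, 5.14 and 4.90 in females (4.95 ± 0.16, 98.1st percentile). The sexes overlapped for Pomc and Tshb, and for Cga the highest male and the lowest female array were equal at 2 decimals.

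The other 4 hormone genes gave dimmer signals. Lhb, the subunit particular to luteinizing hormone, had levels of -0.53, -0.03 and 0.27 in males and -0.10, -0.15 and 0.53 in females (SD 0.39, 66.9th percentile). Prl had levels of -0.69, -1.43 and -0.39 in males and -1.53, -0.81 and -0.51 in females (-0.89 ± 0.53, 56.1st percentile). Gh1 had levels of 0.18, -2.45 and -0.37 in males and -0.60, -2.09 and -0.45 in females (-0.96 ± 1.17, 55.3rd percentile). The low values of Gh1 were those of the number 2 array of each sex, and the other 4 arrays lay between -0.60 and 0.18, with a mean of -0.31. Fshb, the subunit particular to follicle-stimulating hormone, was the dimmest, with levels of -5.59, -4.48 and -4.64 in males and -6.07, -6.74 and -5.69 in females. Its probe was well above background on 5 of 6 arrays, all but female control 2. The ranges of Lhb, Prl and Gh1 overlapped each other, while each of Pomc, Cga and Tshb lay above all 3 on every array with a value.

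**Figure D1:**
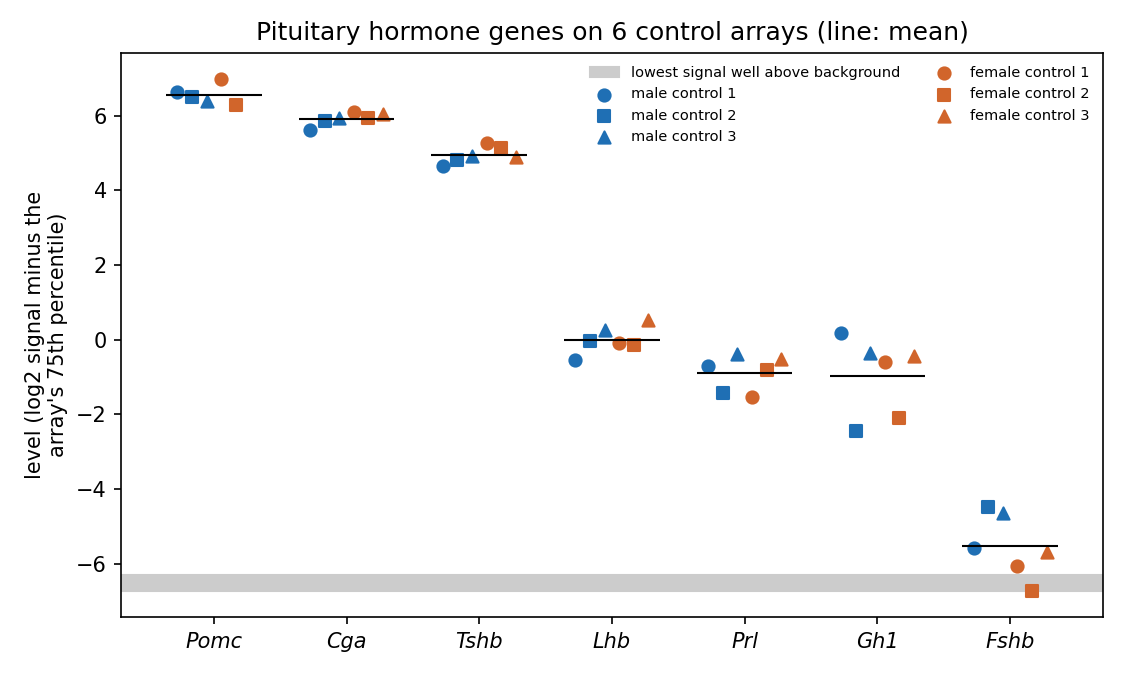
Level of each anterior pituitary hormone gene (vertical axis, log2 signal minus the array's 75th percentile) on each control array, with males in blue, females in orange, the symbol giving the array number and a line at the mean. Pomc, Cga and Tshb sit between 4.66 and 7.00, Gh1 is lowest on the number 2 array of each sex, and Fshb lies near the grey band of the lowest detectable signals; the outlier spot of Pomc on female control 3 is not drawn.

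Genes that serve hormone storage and release were detected without exception. All 22 genes of prohormone processing and the secretory granule were detected on all 6 arrays, against 71.6% of all genes with a symbol. Chgb, a granule core protein, averaged 4.32 ± 0.23, Scg2, another granin, 3.46 ± 0.18, and Scg5, a chaperone of the prohormone convertase PCSK2, 2.90 ± 0.22. Ptprn2, a granule membrane protein, was the brightest at 4.41 ± 0.31, and Cpe, which trims processed prohormones, averaged 2.27 ± 0.12. The convertases that cut the Pomc precursor were dimmer, with Pcsk1 at -2.36 ± 0.88 and Pcsk2 at -4.28 ± 0.24. For Pcsk1 the arrays differed: it stood at -2.98, -1.80 and -3.08 in males and -1.81, -1.26 and -3.25 in females. In 9 of 22 of these genes the number 2 arrays lay above the other 4, against 11% of all genes detected on all 6 arrays, and the part of ganglion RNA in these levels was not tested.

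Of 17 pituitary progenitor transcription factors on the array, 15 (88.2%) were detected on all 6 arrays, beside 71.6% of all genes with a symbol. Their levels ran from the 5.7th to the 87.2nd percentile of the genes detected on all 6 arrays. Sox2, a stem and progenitor factor, averaged 2.13 ± 0.42, and Pitx1, which acts from the oral ectoderm onward, 1.88 ± 0.27. Lhx3, needed for the pouch and most hormone lineages, averaged -0.33 ± 0.22, and Otx2 -0.31 ± 0.47. Hesx1, an early repressor of the pouch, was detected on no array, and Sox9 was detected on female control 3 alone. In 10 of the 15 female control 1 held the highest level, beside 33.2% of all genes detected on all 6 arrays.

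Among lineage factors, Tbx19, Msx1 and Pou1f1 gave the brightest signals. Tbx19, the corticotrope factor that acts on Pomc, had levels of 1.30, 1.31 and 1.38 in males and 1.90, 1.20 and 1.31 in females (1.40 ± 0.27). Msx1, a homeobox factor, averaged 1.26 ± 0.33. Pou1f1, which drives Gh1, Prl and Tshb, stood at 0.39, 0.08 and 0.30 in males and 0.80, 0.21 and 0.32 in females (0.35 ± 0.25). Neurod1, an early corticotrope factor, averaged -1.25 ± 0.26, and Gata2, of thyrotropes and gonadotropes, -2.99 ± 0.23. Nr5a1, the gonadotrope factor, was detected on all 6 arrays near the detection limit, at -5.20 ± 0.25, while Nr0b1, its partner, averaged -1.44 ± 0.29. Pax7, of melanotropes, and Foxl2, of gonadotropes, were detected on no array. Neurod4 was detected on 4 of 6. In all, 14 of 17 lineage factors (82.4%) were detected on all 6 arrays, beside 71.6% of all genes with a symbol. In 11 of the 14, Tbx19 and Pou1f1 among them, female control 1 held the highest level, beside 33.2% of all genes detected on all 6 arrays. Isl1, known both in thyrotropes and in sensory neurons, was uneven: it stood at -2.60, -0.21 and -2.50 in males and -1.92, 0.06 and -2.72 in females, high on the number 2 arrays like the ganglion markers.

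Of 28 receptors through which hypothalamic and local signals reach the gland, 14 (50%) were detected on all 6 arrays, beside 71.6% of all genes with a symbol, 6 on 1 to 5 arrays and 8 on none. Drd2, the dopamine receptor of lactotropes and melanotropes, averaged -1.09 ± 0.28, and Gnrhr, the receptor for gonadotropin-releasing hormone, -2.33 ± 0.38. Prlhr was the brightest of the list at -0.49 ± 0.12. Of 5 somatostatin receptors, Sstr4 (-1.29 ± 0.56), Sstr1 (-1.61 ± 0.57), Sstr2 (-3.42 ± 0.42) and Sstr3 (-5.08 ± 0.39) were detected on every array, and Sstr5 on none. Avpr1b, the vasopressin receptor of corticotropes, averaged -4.21 ± 0.38. Crhr1, the corticotrope receptor for corticotropin-releasing hormone, was detected on 4 arrays, and Trhr, the thyrotrope receptor for thyrotropin-releasing hormone, on 5. Trhr had levels of -6.16, -6.16 and -5.49 in males and -5.11, -5.49 and -5.91 in females, all near the detection limit. The genes detected on no control array were Ghsr, Crhr2, Oxtr, Drd1, Tacr1, Adcyap1r1, Galr3 and Sstr5. Kiss1r was detected on 4 arrays, Galr1 on 5, Avpr2 on 2 and Mtnr1b on 1.

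Ghrhr, the somatotrope receptor for growth hormone-releasing hormone, followed the same arrays as Gh1. It stood at -4.23, -5.92 and -4.28 in males and -4.52, -6.23 and -4.00 in females, so the number 2 arrays were again the lowest. Both genes were below all 4 other arrays on the number 2 arrays, as were 22.9% of the genes detected on all 6 arrays. Pou1f1 was lowest on the number 2 arrays as well, at 0.08 and 0.21 against 0.30 to 0.80 on the other 4. It was 1 of 3 lineage factors with this order among the 14 detected on all 6 arrays, near the share of all genes. Crhr1 was not detected on the number 2 arrays. A link between these genes was not tested.

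For hormones from the periphery, 15 of 25 receptor genes (60%) were detected on all 6 arrays, beside 71.6% of all genes with a symbol. Another 4 were detected on 1 to 5 arrays and 6 on none. The retinoid receptors Rarg (1.32 ± 0.37), Rxrg (0.61 ± 0.13) and Rara (0.28 ± 0.20) and the thyroid hormone receptor Thra (0.51 ± 0.11) gave the highest levels. Thrb, the other thyroid hormone receptor, was detected on 1 array. The glucocorticoid receptor Nr3c1 averaged -2.96 ± 0.22. The estrogen receptors Esr1 and Esr2 were detected on no array, with Esr1 between -8.89 and -8.51. Pgr, the progesterone receptor, was detected on 4 arrays and ran from -6.64 to -3.32. Lepr, Fshr, Lhcgr and Mc2r were not detected on any array, Vdr on 2 and Prlr on 1. An undetected gene is one whose probe gave no signal well above background, which does not show that its RNA was absent.

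The hormones of the hypothalamus and posterior lobe gave low signals. Of 10 genes, 7 (70%) were detected on all 6 arrays, near the 71.6% of all genes with a symbol. Ghrh averaged -0.99 ± 0.27, Oxt -1.37 ± 0.44 and Sst -2.22 ± 0.71. Avp was detected on 5 arrays at levels from -6.23 to -5.74, Trh on male control 3 alone (-4.49, with the other 5 arrays at -7.11 or below) and Crh on none. Of the listed local peptides and growth signals, 20 of 21 (95.2%) were detected on all 6 arrays, beside 71.6% of all genes with a symbol. Bulk arrays do not show which cells made them. Igf2 averaged 6.09 ± 0.19 and Igf1 4.38 ± 0.27. Nmb, for neuromedin B, averaged 1.78 ± 0.30, and Penk, for the enkephalin precursor, 0.99 ± 0.32. Adcyap1, Gal and Tac1 were uneven. Gal stood at -0.74, 0.64 and -2.06 in males and -1.95, 1.50 and -1.48 in females, highest on the number 2 arrays. Edn1, for endothelin, was detected on female control 1 alone, at a level of -6.40.

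Of the signals that pattern the gland, 18 of 22 (81.8%) were detected on all 6 arrays, beside 71.6% of all genes with a symbol. The Notch ligands Dll3 (0.84 ± 0.40) and Jag1 (0.33 ± 0.11) and the bone morphogenetic proteins Bmp4 (0.36 ± 0.40) and Bmp7 (0.32 ± 0.37) gave the highest levels. Shh was detected on no array, Fgf8 was detected on 1 and Fgf10 and Nog on 4 each. In thyroid hormone, steroid and retinoid metabolism 15 of 16 (93.8%) were detected on all 6 arrays, beside the same 71.6%. The retinoid carrier Crabp2 was the brightest, at 4.84 ± 0.23. The deiodinases differed: Dio3, which inactivates thyroid hormone, averaged -2.52 ± 0.16, Dio2, which activates it, -3.24 ± 0.30, and Dio1 was not detected on any array. Of 21 cell cycle genes, 20 (95.2%) were detected on all 6 arrays, again beside 71.6%. The dimmest of the 20 was Cdkn2c, at -4.19 ± 0.15. Cdk1 averaged 2.75 ± 0.18, Rrm2 2.51 ± 0.12 and Mcm3 2.11 ± 0.19, and the brightest was Cdkn1c, an inhibitor of the cycle, at 5.68 ± 0.27. Cdkn2a was not detected on any array.

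**Figure D2:**
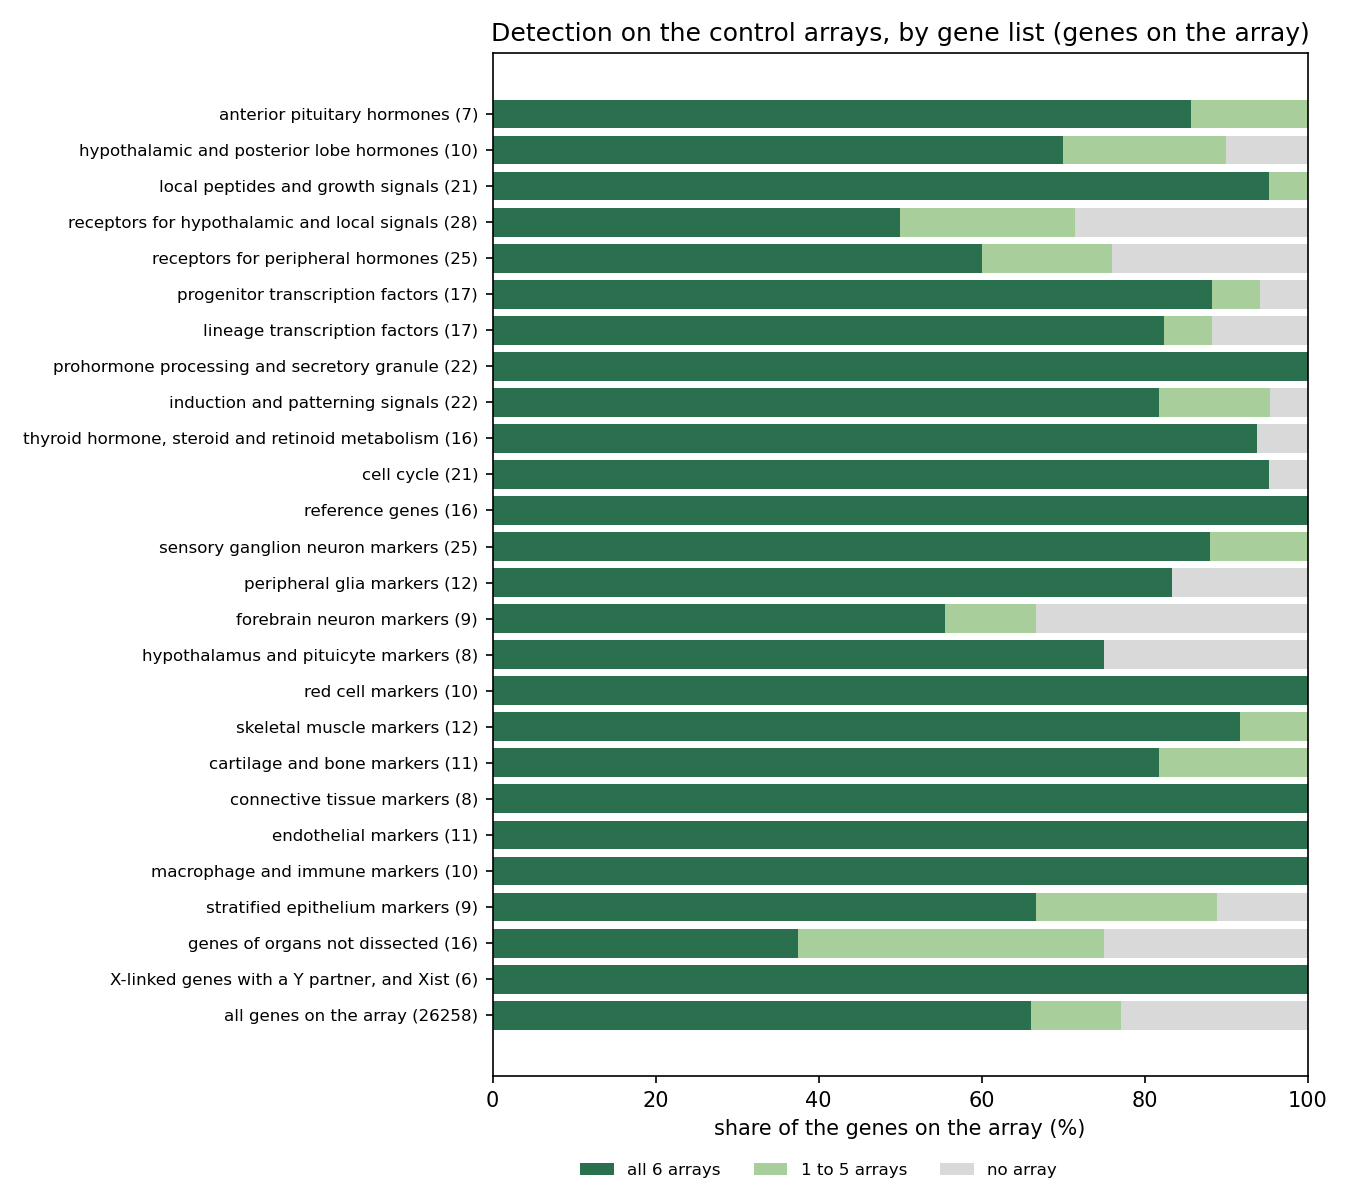
Share of the genes of each list (number on the array in brackets) detected on all 6, on 1 to 5 or on none of the control arrays, with all 26258 genes in the bottom bar. Granule genes were all detected on all 6 arrays, receptors for hypothalamic signals on all 6 in 14 of 28, and genes of organs not dissected in 6 of 16.

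The 20 named genes of highest level were mostly those of ribosomes, blood and the cytoskeleton. They held 9 ribosomal protein genes, led by Rplp0 (7.35 ± 0.12, n = 5) and Rpl41 (7.33 ± 0.11, n = 5), and 3 globin genes, Hbb-b1 (7.36 ± 0.10, n = 5), Hba-a1 (7.01 ± 0.21) and Hbb-bs (6.47 ± 0.29). Actg1, a cytoplasmic actin, averaged 6.83 ± 0.11, and Myl6, a myosin light chain, 6.45 ± 0.08. Nnat, for neuronatin, averaged 6.71 ± 0.12, and Tpt1 6.74 ± 0.14. Pomc was the only hormone gene among the 20. Stfa2 (6.60 ± 0.29), Ceacam9 (6.70 ± 0.11), Ppia (6.52 ± 0.13) and the other ribosomal protein genes, between 6.44 and 6.87, made up the rest. Averaging all probes of a gene in place of the brightest kept 11 of the 20.

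Markers of several other tissues were detected on every array, and 71.6% of all genes with a symbol were detected on all 6. All 8 connective tissue markers were detected on all 6 arrays, with Col1a1 at 5.70 ± 0.19, Col1a2 at 5.36 ± 0.18 and Col3a1 at 5.22 ± 0.25. So were all 11 endothelial markers, with Plvap at 3.72 ± 0.32 and Kdr at 3.40 ± 0.20, all 10 immune markers, with C1qb at 3.08 ± 0.34, and all 10 red cell markers. Of 11 cartilage and bone markers 9 were detected on all 6 arrays, with Col2a1 at 1.61 ± 0.23. Of 9 forebrain markers 5 (55.6%) were detected on all 6 arrays, below the share of all genes with a symbol. Tbr1, Slc17a7 and Gad2 were not detected on any array. Stratified epithelium markers were detected on all 6 arrays in 6 of 9 (66.7%), also below that share. Neither count shows that its tissue was present. Krt10 was detected on 3 arrays, the female ones, and Krt1 was highest on female control 2 and 3 (-1.61 and -1.80, against -4.99 to -3.85 on the other 4). As a gauge of the background, 6 of 16 genes of organs that were not dissected were detected on all 6 arrays, most of them near the detection limit, such as Ins1 at -5.54 ± 0.35.

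The spread between arrays was small for most genes. Over the 17336 genes detected on all 6 arrays, the median pooled within-sex SD was 0.18, with quartiles of 0.12 and 0.30, and 95% of genes had an SD of 0.64 or less. Replicate spots of the same probe within a control array had a median SD of 0.051 to 0.061. The SD fell with level, from a median of 0.28 in the dimmest of 4 equal bins of genes to 0.20, 0.15 and 0.13 in the brighter ones. Reference genes had a median SD of 0.12, with Rps18, a ribosomal protein gene, at 0.04 and Eef1a1, an elongation factor gene, at 0.25. The named genes of smallest SD included Sgsm2, Exoc6b, Rragc, Ppid, Psmd7, Amd1, Hspd1-ps2, Psmc2 and Kat7. Sgsm2, the least variable, lay between -1.12 and -1.07 on all 6 arrays (SD 0.012). Psmd7 and Psmc2 are proteasome subunits, and Hspd1-ps2 is annotated as a pseudogene, so its probe cannot be told apart here from its parent gene.

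At the other end, 296 genes (1.71%) had an SD above 1 and 1518 (8.76%) an SD above 0.5. In 224 of the 296, the number 2 arrays of the 2 sexes were the 2 highest, and in 4 (Gh1, Ghrhr, Senp5 and the unnamed probe A_64_P019016) the 2 lowest. Of the 296 genes, 73 still had an SD above 1 over the 4 arrays left when the number 2 arrays were set aside. Of the 20 named genes of largest SD among those detected on all 6 arrays, many mark sensory ganglia. P2rx3, an ion channel of pain-sensing neurons, stood at -1.68, 2.88 and -3.09 in males and -2.64, 3.38 and -3.99 in females. Prph, for peripherin, Scn10a, a sodium channel, and Sncg behaved alike, with SDs of 3.53, 3.42 and 3.62. The same arrays were highest for Cplx1, Ppp1r1c, Isl2, Adcyap1, Cpne6, Drgx, Nefm, Serpinb1b, Plekhd1, Bmerb1, Avil, Kcna1 and Phf24, with SDs from 2.38 to 2.96.

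All 25 sensory ganglion markers on the array had both number 2 arrays above the other 4. Of these markers 22 were detected on all 6 arrays, where 11% of all genes so detected had that order. Of 12 peripheral glia markers 10 were detected on all 6 arrays, and 9 of the 10 had it. Both lists were chosen with earlier results of these data known, so these counts describe the arrays and are no separate support. The median SD was 1.88 for the ganglion markers and 0.96 for the glia markers, against 0.18 for all genes. Summed over the 25 markers, the signal was 6.89 and 7.34 on the number 2 arrays (log2 of the sum) and between 4.28 and 4.85 on the other 4. Pou4f1, a defining factor of these neurons, was detected on the number 2 arrays alone. On the other 4 arrays ganglion markers were not all absent: Prph lay between -2.74 and -0.88 and was detected on each. The same markers also set exposed arrays apart, with Prph between 3.79 and 5.12 on 4 of them and at -1.65 and -2.03 on the other 2.

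Afp, the fetal albumin-like protein of liver and yolk sac, had the largest SD (4.15) of the named genes detected on all 6 arrays and stood at 2.42 and 3.01 on the number 2 arrays and between -5.39 and -3.43 on the other 4. Alb, for albumin, stood at 0.08 and 0.73 there and between -8.58 and -6.67 elsewhere, where it was not detected. A list of 16 liver and yolk sac genes, written after these values were seen, had 11 with the number 2 arrays above the other 4, and 2 of the 6 that were detected on all 6 arrays. Fgb, a fibrinogen chain, stood at -2.12 and -1.59 there and between -8.74 and -7.89 elsewhere. Not all members followed: Ahsg and Rbp4 lay between 1.39 and 1.95 on all 6 arrays. On the 4 exposed arrays with Prph at 3.79 or above, Afp stood at -5.17, -1.89, -3.14 and 0.57, and on the other 2 at -0.77 and -2.20. Alb lay between -8.71 and -3.30 on the exposed arrays. Both Afp and Alb were highest among them on female TCDD 3, where Prph was 3.79. The part of other tissue in the levels of Afp and Alb was not tested.

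Ttr, for the carrier of thyroid hormone and retinol that the choroid plexus makes in quantity, followed another order. It stood at 6.44, 1.48 and -3.19 in males and -2.80, 1.71 and -1.73 in females (SD 3.79). Of 12 choroid plexus genes, again listed after Ttr was seen, 9 were detected on all 6 arrays. Of these, 7, Ttr among them, were highest on male control 1, beside 14.2% of all genes detected on all 6 arrays. As the list followed from these values, the count is no separate support. Kcne2, a channel subunit, stood at 0.12 on male control 1 and between -3.29 and -2.38 elsewhere. Aqp1 was highest on male control 3 (1.69, against 1.26 on male control 1) and Lmx1a on female control 3. Kl was not detected on any array. Of 8 hypothalamus and pituicyte markers 6 were detected on all 6 arrays, and all 6 had their highest level on female control 1. So did 9 of the 11 skeletal muscle markers detected on all 6 arrays, beside 33.2% of all genes so detected. Hmx2 and Otp, of the hypothalamus, were detected on no array. Nkx2-1, a factor of the ventral hypothalamus and posterior lobe, stood at -1.18 there and between -3.02 and -2.00 elsewhere. Myh3, the embryonic myosin heavy chain, stood at -0.60 there and between -2.53 and -1.25 elsewhere.

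**Figure D3:**
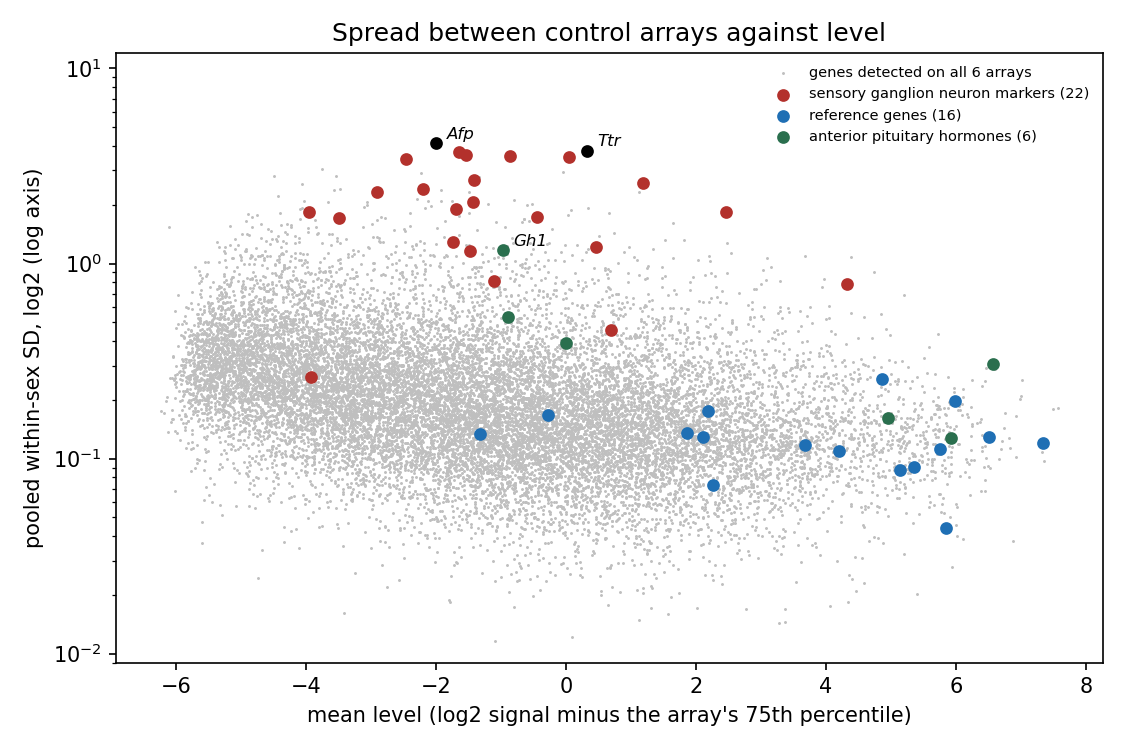
Pooled within-sex SD (vertical, log axis) against mean level (horizontal) of every gene detected on all 6 control arrays (grey), with sensory ganglion markers in red, reference genes in blue, hormones in green and Afp and Ttr in black. Most genes lie below an SD of 0.30, ganglion markers have a median of 1.88, and Gh1 (1.17) is the most variable of the 6 hormone genes drawn.

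**Figure D4:**
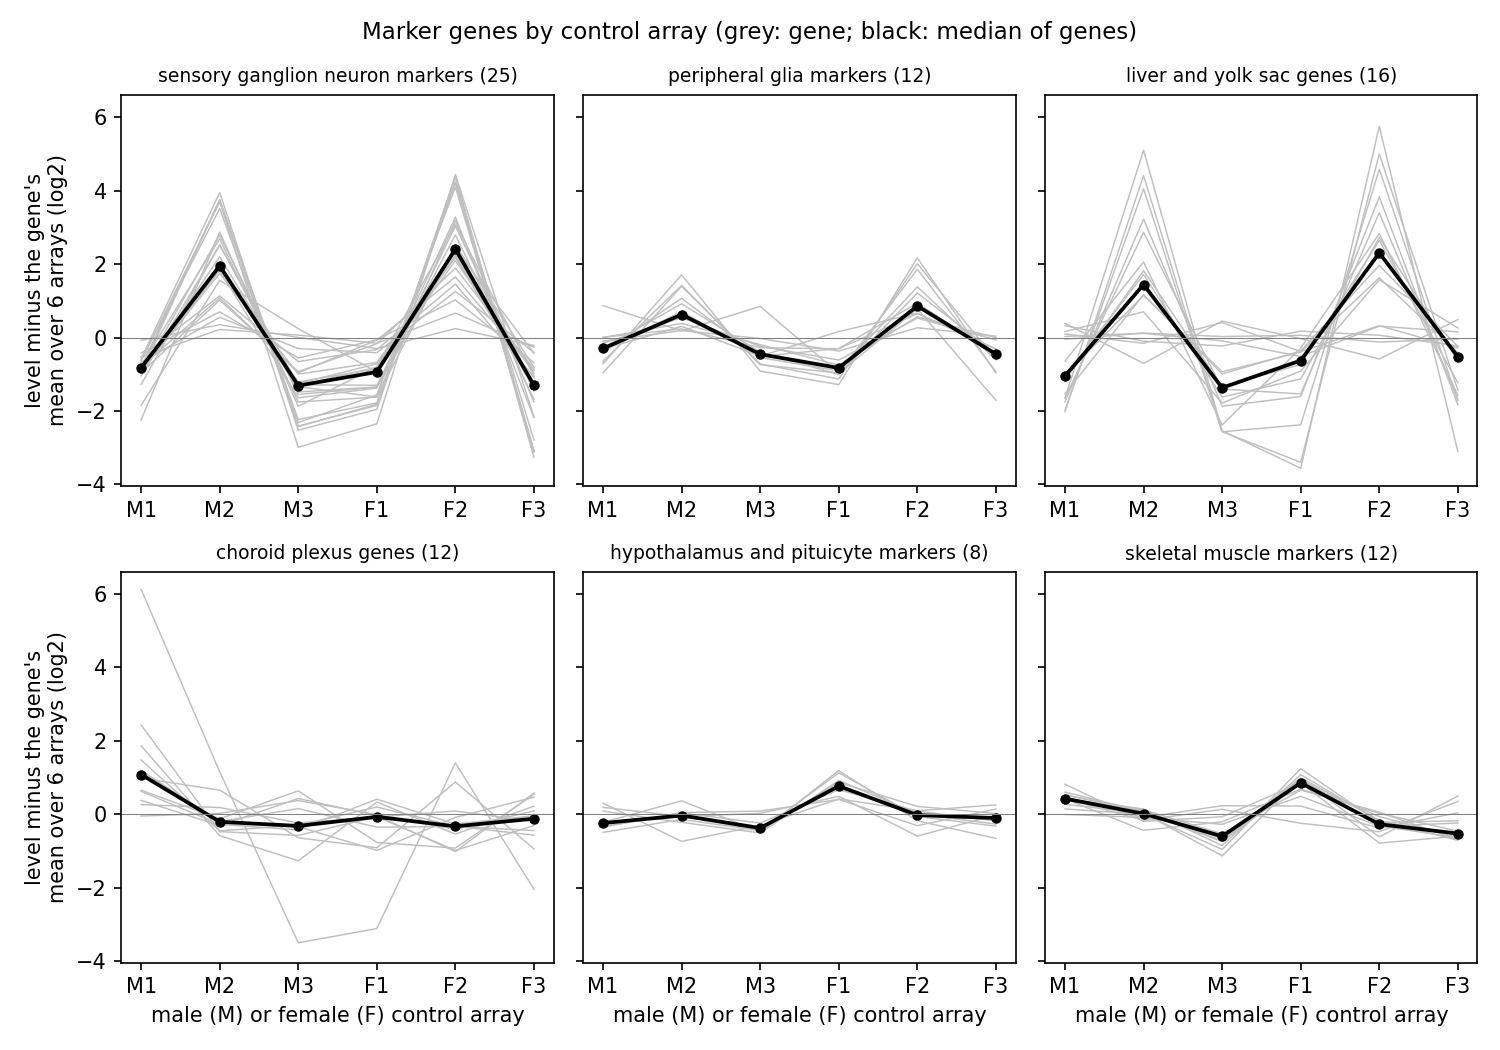
Level of each marker gene minus its own mean over the 6 control arrays (vertical, log2), by array, with genes in grey and their median in black, and the number of genes in brackets. Ganglion, glia and most liver genes are high on M2 and F2, most choroid plexus genes on M1, and hypothalamus and most muscle genes on F1.

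Male and female control pituitaries were then compared, as the labels give the sex of each sample. No gene was called: 0 of 18634 genes tested (0%) passed an adjusted p of 0.05 in limma with Benjamini-Hochberg adjustment, and 1072 had an unadjusted p under 0.05. The groups did not overlap in 1962 genes (10.5%). The gene of smallest p was LOC680227, a predicted gene with a probe at chrX:91462945-91463004 (build rn4). It had levels of -8.49, -8.28 and -8.45 in males and -4.89, -5.08 and -4.88 in females. It was well above background in all 3 females and in no male, so it entered the test through the females alone. Its p-value (limma adjusted p = 0.0663) is therefore no separate support for a difference. On the main scale the signal was at least 3.00-fold higher in females, against the lowest detectable signal of each male array. With normexp background correction the difference, male minus female, was -0.56 in place of -3.46 on the log2 scale. The exposed arrays, which took no part in this fit, showed the same order, with males between -9.05 and -8.69 and females between -5.01 and -4.79.

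X-linked genes with a partner on the Y chromosome leaned towards females without passing the test. Eif2s3, an initiation factor subunit, had levels of 1.92, 1.85 and 1.87 in males and 2.59, 2.51 and 2.57 in females, a difference of male minus female of -0.68 (SE 0.070, limma adjusted p = 0.308). On the exposed arrays its males lay between 1.85 and 1.92 and its females between 2.52 and 2.60. Ddx3x, an RNA helicase, differed by -0.32 (SE 0.068, limma adjusted p = 0.536), and Utx, a histone demethylase also named Kdm6a, by -0.57 (SE 0.15, limma adjusted p = 0.564). Kdm5c differed by -0.29, Usp9x by -0.26 and Zfx by -0.26. At the brightest probe of each gene, the sexes did not overlap in the first 4, on the exposed arrays too, and overlapped in Usp9x and Zfx. The other probe of Ddx3x overlapped on control and exposed arrays, with a difference of -0.096 in the controls. The other probes of Eif2s3 and Utx separated the sexes on both. Over 687 X-linked genes tested, 448 (65.2%) had a lower mean in males, beside 57.7% of all genes tested, and the median difference was -0.069, beside -0.031 over all genes. Sry, the only gene of the Y-linked list on the array, stood between -5.55 and -5.14 in both sexes. It was flagged well above background on all 6 arrays, females included, so it gave no check of the labels.

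The other 8 genes among the 10 of smallest p lay on autosomes or an unplaced sequence. XM_229376 was the only gene of the 10 higher in males, with levels of -4.60, -4.97 and -4.79 in males and -6.81, -7.37 and -6.53 in females. The flag was missing in every female, so this gene entered the test through the males alone (limma adjusted p = 0.465). On the main scale its signal was at least 3.21-fold higher in males, against the lowest detectable signal of each female array. With normexp its difference was 0.44 in place of 2.12. On the exposed arrays males lay between -5.15 and -4.86 and females between -8.53 and -6.75. The remaining 7 (XM_222590, RGD1566207, RGD1564839, XM_345356, ENSRNOT00000012614 and the unnamed probes A_64_P105118 and A_64_P152364) were higher in females by 0.57 to 1.47. All 3 male controls were on slide 1 and the females on slides 2 and 3, so sex and slide cannot be told apart within the controls. Among exposed arrays, the male on slide 1 had -0.25 for RGD1566207 and the 2 males on slide 2 had 1.15 and 1.48. The male controls of that gene lay between 0.17 and 0.44 and the female controls between 1.18 and 1.51. The exposed females, all on slide 3, lay between 0.63 and 1.26.

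Nearly all genes detected on every control array were detected on every exposed array. Of the 17336 genes detected on all 6 control arrays, 17003 were detected on all 6 exposed arrays, and 0 were detected on no exposed array. Conversely 4 genes, Cyp1a1, Alox5, Chst5 and Iqcm, were detected on all 6 exposed arrays and on no control array. Cyp1a1 is the classical target gene of the aryl hydrocarbon receptor, and it gave no signal well above background on any control array.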

How the data were processed

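Per the labels' protocols, total RNA of fetal Wistar rat pituitaries was amplified, labelled with Cy3 and hybridised to one-colour Agilent arrays. The deposited scanner files hold a processed signal per spot, an intensity on a linear scale that Agilent Feature Extraction had background-subtracted before deposit (version 10.7.1.1 per the file headers, 9.5.1.1 per the submitters' processing notes). The authors' deposited value table holds intensity with the same distribution in every array, which was used as an alternative only, and the method behind it is not given in the sources used here. Probe positions are those of build rn4.

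After removal of control spots and outlier flags, each log2 signal was set against the array's 75th percentile, and replicate spots gave a mean per probe. Of 30367 probes, 18006 were named by accession through the RefSeq gene table, 3201 by symbol and 9160 kept the file's name, giving 26258 genes, each represented by its brightest probe. The sex test took genes with a probe that 3 or more of the 6 control arrays flagged as well above background. The test was limma 3.58.1 in R 4.3.3 (lmFit, eBayes with intensity trend) with Benjamini-Hochberg adjustment, checked on simulated data. Spread is the pooled within-sex SD (4 degrees of freedom). With 3 arrays per sex, their number limits the precision.

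The control arrays, the 26 gene lists and the tests were chosen with earlier results of these data known. The lists of liver and choroid plexus genes were added after the levels were seen. Named were every hormone gene, members of the other lists by detection, up to 6 of them with values, the 20 named genes of highest level, the 20 of largest and the 10 of smallest SD, the 10 genes of smallest p between the sexes and all X- and Y-linked genes listed. Some genes that this rule names are not reported here. Other scalings, background correction, filters, blocks and left-out arrays were tried as alternatives. The labels share the numbers 1 to 3 between the sexes. Deviations of same-numbered male and female arrays correlated at 0.08, 0.84 and 0.39, and those of differently numbered ones at -0.65 to 0.41. The main test did not pair the samples by number, and a replicate block was tried as an alternative. Whether same-numbered arrays share a batch or litter was not tested.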

Additional observations from a re-analysis of the deposited data

How the results depend on the processing

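Calls between the sexes numbered 0 under 17 of 21 alternatives. They numbered 1 (LOC680227) with no filter on dim probes, 1 (LOC680227) with no intensity trend, 2 (LOC680227 and Eif2s3) with all 12 arrays and a mean for each group, and 9, none of them X-linked, with all 12 arrays and slide as a fixed block. That last fit rests for slide 1 on 1 exposed male array. Over the alternatives, limma's adjusted p ran from 0.000307 to 0.999 for LOC680227 and from 0.00332 to 1 for Eif2s3, and both stayed lower in males in each. With the replicate block, 0 genes were called and 1318 had an unadjusted p under 0.05. Leaving out each array in turn gave 0 to 0 calls, and 529 to 2297 genes at an unadjusted p under 0.05. With slide as a fixed block the difference, male minus female, changed sign to 0.32 for XM_222590, 0.52 for RGD1566207, 0.12 for A_64_P105118, 0.17 for ENSRNOT00000012614, 0.26 for RGD1564839 and 0.11 for Zfx. For Sry, leaving out each array in turn gave -0.062 to 0.14, below 0 without male control 3 and without female control 2 (-0.035). The cause was not tested.

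Genes detected on all arrays numbered 17330 to 20150 under the other detection settings, 17363 to 17519 without each array in turn and 17866 without the number 2 arrays. The median SD ran from 0.15 with normexp background correction to 0.24 over all genes, detected or not, from 0.16 to 0.19 without each array and was 0.15 without the number 2 arrays. Median centring raised the median of all probes by 2.48 and quantile normalization by 0.62, and the 7 hormone levels rose by 2.48 and by 0.56 to 0.62. Normexp raised that median by 0.77, but moved 6 hormone levels by -0.074 (Prl) to 0.23 (Gh1), and Fshb from -5.53 to -3.63. Without the number 2 arrays the mean of Gh1 was -0.31.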

Other observations

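With the number 2 arrays set aside, 186 genes detected on all 6 arrays had an SD above 1 over the other 4, and the genes below were picked from that list after their values were seen. Defensin genes, which encode antimicrobial peptides of neutrophils and gut, were among them. RatNP-3b stood at -3.70, -4.98 and -6.63 in males and -1.61, -2.45 and -4.39 in females. Defa5 stood at -3.26, -4.61 and -6.01 in males and -1.46, -1.97 and -2.81 in females, and Defa10 at -3.69, -5.57 and -6.13 in males and -2.37, -3.35 and -3.94 in females. In each of the 3, female control 1 was highest and male control 3 lowest. Male control 1 alone was high for Prss41 (-2.51, against -5.57 to -4.61 elsewhere) and Or52z1 (-2.65, against -5.99 to -5.40). Syce1, a gene of meiotic chromosome pairing, stood at -4.13, -3.34 and -2.07 in males and -5.54, -3.69 and -2.36 in females, highest on the number 3 array of each sex. Msx2, a homeobox gene, had the same order at its top, with -2.79 and -2.71 on the number 3 arrays and -5.93 to -4.06 on the other 4.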
